A study of Rattus norvegicus with 2 samples.

Results

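The synaptic vesicle release machinery was described here as 72 genes, out of 18823 genes with a symbol on the array. The genes were taken by name: synaptotagmins (Syt), syntaxins (Stx), syntaxin-binding proteins (Stxbp), vesicle-associated membrane proteins (Vamp), the Snap proteins, complexins (Cplx), Rims, synapsins (Syn), Sv2a to Sv2c, Rab3a to Rab3d and Unc13a to Unc13d. They had 85 of the 30367 rat probes and 130 of the 42877 rat spots. Synaptophysin, Syp, was also sought by name, had no probe of that name and was not analysed here. The measurements came from the nucleus tractus solitarius (NTS), the brainstem nucleus in which visceral afferents make their first central synapse.

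There were 2 groups. The female pool held RNA from 5 female Wistar Kyoto (WKY) rats and the male pool RNA from 5 male WKY rats, all 9 weeks old and fed and watered freely. In every rat the calamus scriptorius served as landmark, and the tissue reached 1.0 mm to its rostral and 0.5 mm to its caudal side. Each rat gave 100 ng of total RNA to its pool, and 150 ng of the pool was labelled with Cy3 and hybridised to 1 single-colour array. Pooling hides the differences between rats, and with 1 array per sex nothing below could be checked against replicates or tested.

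A level is the log2 processed signal of a probe relative to its own array's 75th percentile over rat spots, so a level of 0 equals that percentile. A difference is the female level minus the male level of the same probe. Levels of different probes depend on the probe and are not compared with each other. The female array had a 75th percentile of 3380 and 87.9% of its rat spots well above background, the male array 3441 and 85.5%, and 0 spots were saturated. The spread of repeated spots, given below as the spot SD, covers error within the arrays only: over probes spotted 10 times, the difference had an SD of 0.31 in the dimmest class (over 64-fold below the 75th percentile), 0.15 at 16- to 64-fold below, 0.089 at 4- to 16-fold below and 0.069 in brighter probes. Of 12 neuronal marker genes with counted probes, 6 were higher and 6 lower in the female pool, with a median difference of -0.0020. Their summed level was 177.2 female against 177.1 male in units of the 75th percentile. Such a sum weighs the brightest probes most, here that of Uchl1 at a level of 6.67 female and 6.66 male. Genes known from the dissected region that were well above background on both arrays included Tlx3, a transcription factor gene of the developing NTS, the catecholamine synthesis genes Th and Dbh, and the hindbrain patterning genes Hoxb4 and Hoxb5.

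Neurotransmitter is released when a synaptic vesicle fuses with the plasma membrane. A SNARE protein of the vesicle (Vamp1 or Vamp2) zips together with SNAREs of the plasma membrane (a syntaxin and Snap25), Unc13 proteins prepare this assembly, complexin holds it, and synaptotagmin triggers fusion when calcium enters. Rim and Rab3 proteins dock the vesicle at the active zone, synapsins tether the reserve of vesicles, and further members of the same families act at endosomes and the Golgi apparatus in every cell.

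Several of these genes had a probe in or near the coding region and another closer to the 3′ end of the transcript, and the values of such probes differed, as described further down. The sequences shown are those of Snap25, Vamp1, Vamp4 and Cplx1, because each has a probe at 2 positions of its transcript. All are target-strand sequences from the array files, 5′ to 3′, with the files' coordinates on rat build rn4 and on the + strand. The first Snap25 probe lies at chr3:124893320-124893379 and its capitals mark the stop codon that ends the reading frame after 19 further codons.
Snap25, end of the coding region: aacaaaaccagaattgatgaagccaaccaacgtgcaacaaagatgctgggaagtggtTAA
The first 30 bases of the second Snap25 probe, at chr3:124893776-124893835, follow. No reading frame of this probe was free of stop codons.
Snap25, 3′ probe: ttcttgtaaaactgtgacattccacagagc
The Vamp1 probes lie at chr4:161337249-161337308, shown whole, and chr4:161340363-161340422, of which the first 30 bases are shown.
Vamp1, coding region: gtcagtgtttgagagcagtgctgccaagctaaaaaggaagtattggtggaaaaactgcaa
Vamp1, 3′ probe: cttccaccaaaggcatgtgacagatttacc
The Vamp4 probes lie at chr13:78250648-78250707 and chr13:78269698-78269757, and bases 31 to 60 of each are shown. Capitals mark the start codon in the first and the hexamer AATAAA, the usual polyadenylation signal, in the second.
Vamp4, start of the coding region: ATGcctcccaagttcaagcgccacctaaat
Vamp4, 3′ probe: cctttccatagtaaacagcaaAATAAAcca
The Cplx1 probes lie at chr14:1762159-1762218, with the first 30 bases shown, and chr14:1763113-1763172, with bases 16 to 45 shown and the hexamer in capitals.
Cplx1, 5′ probe: tctgttgctctgcaaggtttggcttaagaa
Cplx1, 3′ probe: gagggaatcacagccAATAAAcagtgattt
On the target strand alone, AATAAA stood in 5 of 85 member probes (5.88%), against 2547 of all 30367 rat probes (8.39%). Median GC content was 45% both in counted member probes and in all counted probes. Exon and UTR limits of the other probes were not analysed here.

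Of the 72 genes, 68 were counted, with 80 probes well above background on both arrays. Syt15, Stxbp4, known from insulin-stimulated transport, and Stx11, a syntaxin of cytotoxic lymphocytes, were not above background on either array. Cplx4, a complexin of retinal ribbon synapses, was above background on the female array only, with a processed signal of 13.1 female against 3.18 male. Set against the floor of the male array, this is at least 1.02-fold higher in the female pool. A single spot stood behind 58 of the 72 genes.

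None of the 68 counted genes differed by 1.5-fold between the pools. Among all 15560 counted genes, 0.893% were at least 1.5-fold higher in the female pool and 1.57% at least 1.5-fold lower, and at 2-fold the shares were 0.109% and 0.424%. The members ranged from -0.48 for Stx3 to 0.36 for Syt8, with a median of -0.011 against -0.014 over all counted genes. The female value was the higher one for 31 of the 68, or 45.6%, against 45.7% of all genes, and the male value for 37. At a smaller threshold of 0.32 on the log2 scale, 3 members were higher and 6 lower in the female pool, beside 3.93% and 5.47% of all genes. By more than 2 spot SDs of the brightness class, 9 members were higher and 9 lower in the female pool, against 7.26% and 12.3% of all genes. Without 4 bands of the array that are described further down, these counts were 9 and 4, against 7.42% and 11.6% of all genes. The 9 higher members were then not all the same genes. All directions are relative to the 75th percentile. Scaling by the spike-in probes added the same 0.67 towards the female pool to every gene, members or not. With that shift 68 of 68 members were higher there, at a median of 0.66, beside a median of 0.66 over all counted genes. This count follows from the shift, and the matching share of all genes was not analysed here. In tissue RNA, fewer cells of a type and less RNA per cell cannot be told apart.

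**Figure D1:**
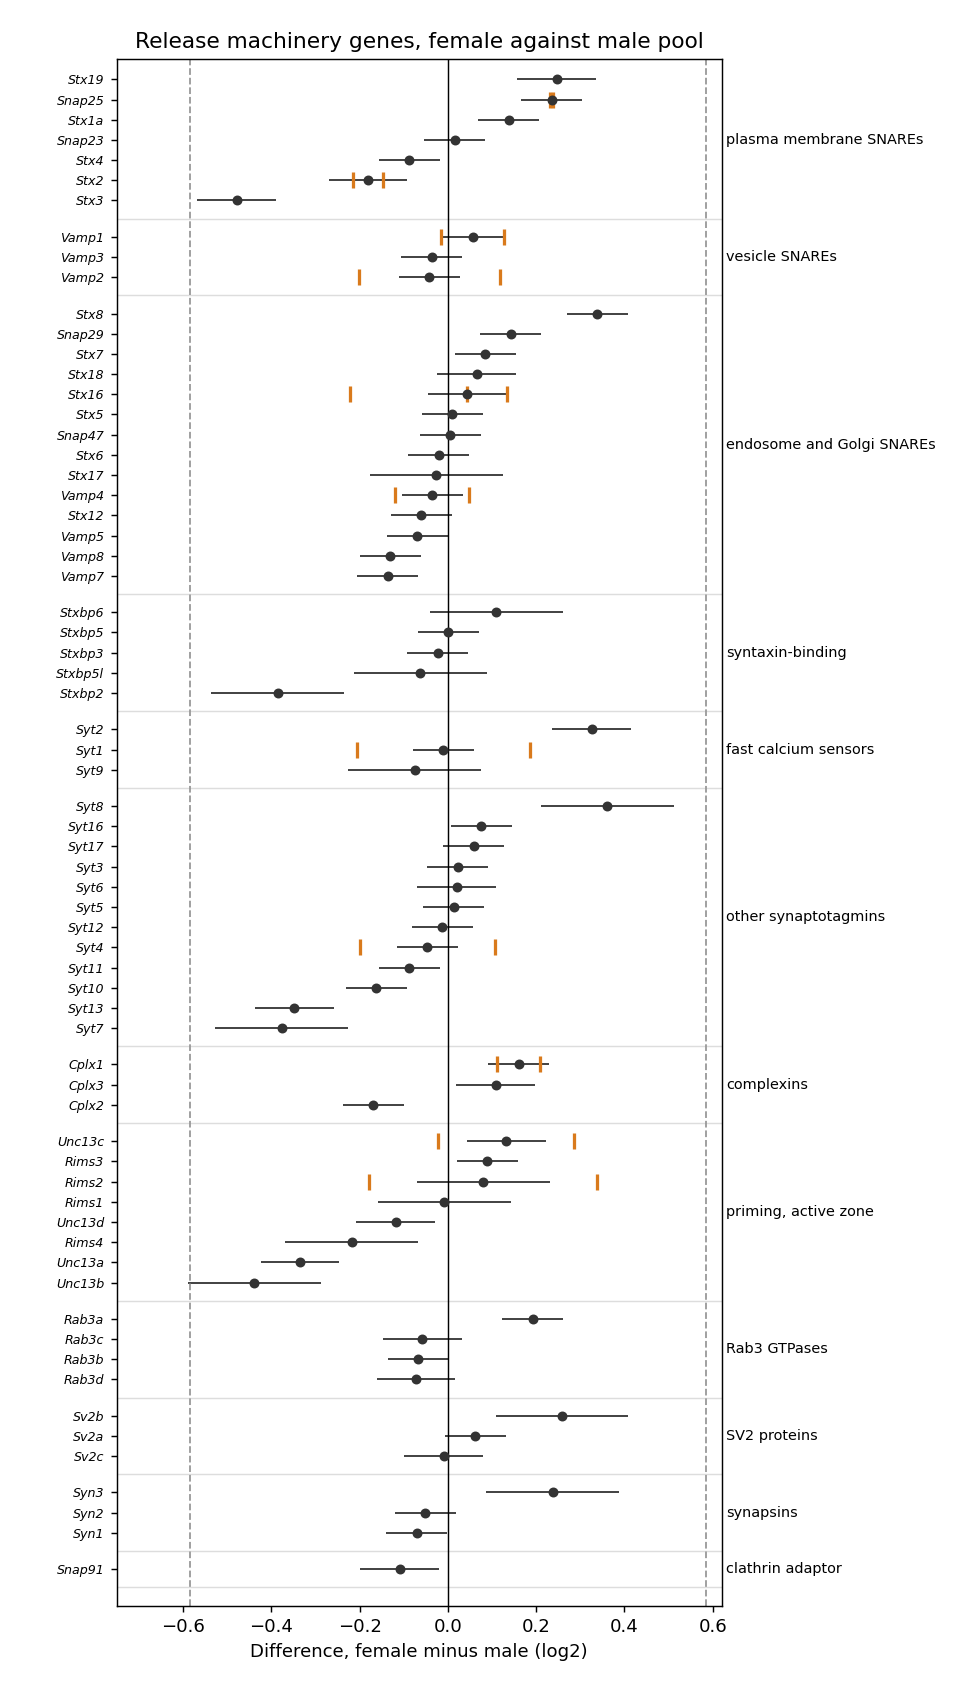
Difference of 66 of the 68 counted release genes, female minus male on the log2 scale, ordered within roles. Black points are gene values with 1 spot SD of their brightness class as error bar, orange ticks are the single probes of genes with several, and dashed lines mark 1.5-fold; every point lies inside these lines, between -0.48 and 0.36.

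The plasma membrane SNAREs had 8 counted genes of 9, 4 higher and 4 lower in the female pool. Snap25, the neuronal SNARE with both of its helices in the fusion complex, gave levels of 2.08 female and 1.85 male with the probe at the end of its coding region. Its 3′ probe gave 3.40 female and 3.16 male. Both Snap25 probes were thus higher on the female array by nearly the same amount, 0.23 and 0.24, and the gene value of 0.24 was beyond 2 spot SDs. Stx1a, the main syntaxin of synaptic release, had levels of 3.43 female and 3.29 male, a difference of 0.14. The syntaxins of other membranes held the ends of this group. Stx19, a syntaxin without a membrane-spanning segment, had -3.44 female and -3.69 male, a difference of 0.25. Stx3, used at ribbon synapses and apical membranes, had -3.87 female and -3.39 male. Its difference of -0.48, 1.39-fold, lay more than 5 spot SDs from 0 but rests on 1 spot, which lies in a band of the array where dim spots were often brighter on the male array. Stx2, known from epithelia, gave -0.18, and Stx4 and Snap23, which serve secretion in most cells, gave -0.087 and 0.015.

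Among the 3 vesicle SNAREs, gene values stayed between -0.042 and 0.056. Vamp1, the form that prevails in brainstem and spinal cord, had 3.82 female and 3.69 male with its 3′ probe and -1.27 female and -1.26 male with its coding probe. Vamp2, the form that prevails in forebrain, had 2.97 female and 2.85 male with its 3′ probe. The other Vamp2 probe was dim, at -6.71 female and -6.51 male. The 3′ probe was therefore higher on the female array in both genes, by 0.13 and 0.12, and the 5′ probe was not, at -0.017 and -0.20. Both of these 5′ values are smaller in size than the spot SD of their brightness class. Vamp3, the form of non-neuronal recycling vesicles, gave -0.037.

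A group of 14 SNAREs was labelled as that of endosomes and the Golgi apparatus, though some of them act at other membranes. The group split evenly, 7 and 7, with a median of -0.0076. Stx8, a late endosomal SNARE, stood apart with levels of 1.5 female and 1.16 male. Its difference of 0.34, 1.26-fold, was the largest among members in the brightest class, where the spot SD is 0.069. Stx7, its partner in late endosomes, gave 0.085, and Snap29, which acts in autophagosome fusion, gave 0.14. At the other end were the lysosomal Vamp7 at -0.14 and Vamp8 at -0.13. Between them lay Stx18 at 0.066, Stx16 at 0.044, Stx5 at 0.0096, Snap47 at 0.0052, Stx6 at -0.020, Stx17 at -0.026, Vamp4 at -0.036, Stx12 at -0.061 and Vamp5 at -0.069.

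Of 6 counted syntaxin-binding genes, 3 were higher and 3 lower in the female pool. Stxbp2, known from granule release in blood cells, had -4.89 female and -4.50 male, a difference of -0.39 in a dim probe. Stxbp3, which serves glucose transporter traffic, was measured with 10 spots and had 0.20 ± 0.043 female and 0.22 ± 0.050 male (SD over spots, n = 10). The tomosyn genes Stxbp5 and Stxbp5l gave 0.00088 and -0.063, and Stxbp6, amisyn, gave 0.11.

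**Figure D2:**
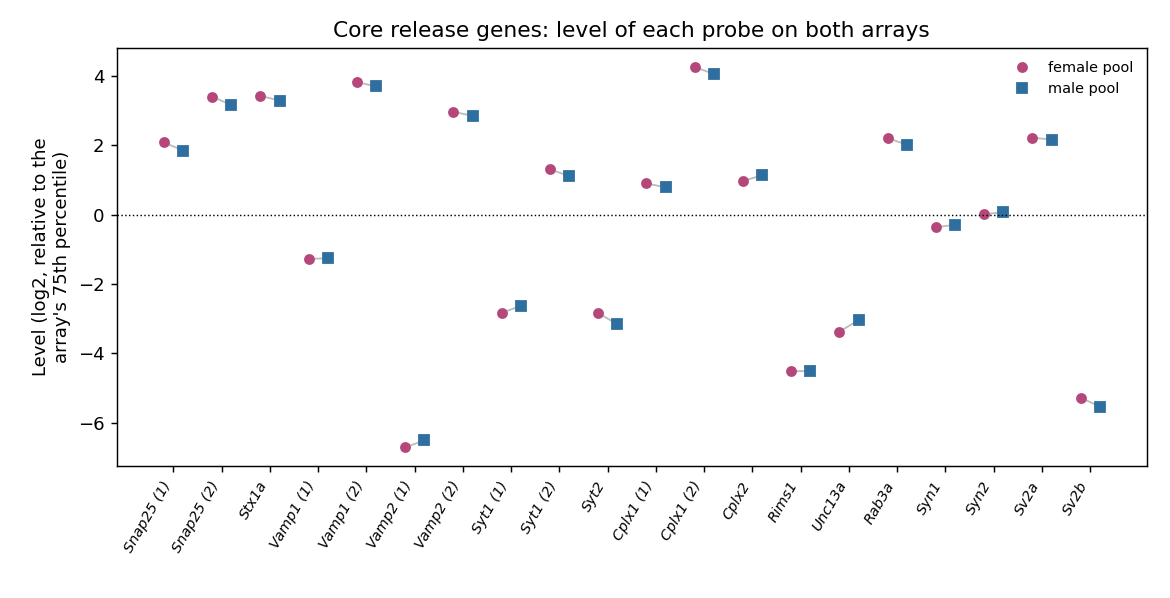
Level of every counted probe of 15 core neuronal release genes on the female array (circles, left of each pair) and the male array (squares, right), in log2 relative to the 75th percentile of the array. Where a gene has 2 probes, (1) is nearer the 5′ end and (2) nearer the 3′ end; within a probe the arrays lie close together, with Syt2 (-2.83 female, -3.16 male) and Unc13a (-3.38 female, -3.04 male) the widest.

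The calcium sensors of fast release were not alike. Syt2, the fast sensor that prevails in the hindbrain, had -2.83 female and -3.16 male, and its difference of 0.33 exceeded 3 spot SDs. Syt1, the fast sensor that prevails in forebrain, had 1.30 female and 1.12 male with its 3′ probe, spotted 10 times, and -2.83 female and -2.63 male with its other probe. The 2 Syt1 probes lay on opposite sides, 0.19 and -0.21, so the gene value of -0.010 is the middle of unlike readings. Syt9 had a difference of -0.076, within the spot SD of its class. The remaining 12 counted synaptotagmins again split 6 and 6. Syt8 had -4.06 female and -4.42 male, a difference of 0.36 and the largest female excess among the members, on 1 dim spot. Syt7, the high-affinity sensor of slow and asynchronous release, had -5.09 female and -4.72 male, a difference of -0.38. Syt13, which lacks the residues that bind calcium, had -4.12 female and -3.77 male, a difference of -0.35, with its spot in one of the same bands. Syt10 gave -0.16, also beyond 2 spot SDs and on 1 spot in such a band. Syt11, another form that does not bind calcium, had -0.77 ± 0.059 female and -0.68 ± 0.053 male (SD over spots, n = 10). The others, Syt16, Syt17, Syt3, Syt6, Syt5, Syt12 and Syt4, lay between -0.047 and 0.076.

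The 3 counted complexins, small proteins that clamp and then promote fusion, divided between the pools. Cplx1, the form that prevails in brainstem, had 4.26 female and 4.05 male with its 3′ probe and 0.90 female and 0.79 male with its 5′ probe. Cplx2, the form that prevails in forebrain, had 0.97 female and 1.14 male. The gene difference was 0.16 for Cplx1 and -0.17 for Cplx2, each slightly over 2 spot SDs and in opposite directions. Of the Cplx1 probes, the 3′ one passed 2 spot SDs, at 0.21, and the 5′ one did not, at 0.11. The Cplx2 value rests on 1 spot, in a band of the array where dim spots were often brighter on the male array. Cplx3, known from the retina, gave 0.11.

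Of 8 genes of vesicle priming and of the active zone, 3 were higher and 5 lower in the female pool, and their median was -0.063. Unc13a, which encodes Munc13-1, the main priming factor, had -3.38 female and -3.04 male, a difference of -0.34. Unc13b, which encodes Munc13-2, had -4.92 female and -4.48 male, a difference of -0.44. Both differences exceeded 2 spot SDs and rest on 1 spot each, that of Unc13b in such a band and that of Unc13a outside them. Unc13c, which encodes Munc13-3, gave 0.13 from unlike probes, and Unc13d, which serves granule release in lymphocytes, gave -0.12. Rims1, the active zone scaffold, had -4.51 female and -4.50 male, a difference of -0.0078. The related Rims2, Rims3 and Rims4 gave 0.080, 0.089 and -0.22, with Rims4 in a dim class where the spot SD is 0.15.

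Among the Rab3 GTPases, which guide vesicles to the active zone, Rab3a was the one higher in the female pool. It had 2.21 female and 2.02 male, a difference of 0.19 beyond 2 spot SDs. Rab3b, Rab3c and Rab3d gave -0.068, -0.058 and -0.072, each within 1 spot SD. The vesicle membrane proteins of the SV2 family followed with Sv2a at 2.22 female and 2.16 male, a difference of 0.062 that is smaller than its spot SD. Sv2b had -5.27 female and -5.53 male, a difference of 0.26 in a dim class, and Sv2c gave -0.0095. Synapsin levels were -0.36 female and -0.29 male for Syn1, and 0.015 female and 0.066 male for Syn2. The third synapsin, Syn3, had -4.88 female and -5.11 male, a difference of 0.24 that did not reach 2 spot SDs. Snap91, a clathrin adaptor of vesicle retrieval that the name pattern also takes, gave -0.11.

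The 17 core genes of neuronal release, of which 15 are plotted probe by probe, had a median difference of 0.056, with 9 higher in the female pool. The other 51 counted members had a median of -0.023, with 22 higher there. The difference between these medians was not tested, and 5 of the core genes have probes at 2 positions.

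**Figure D3:**
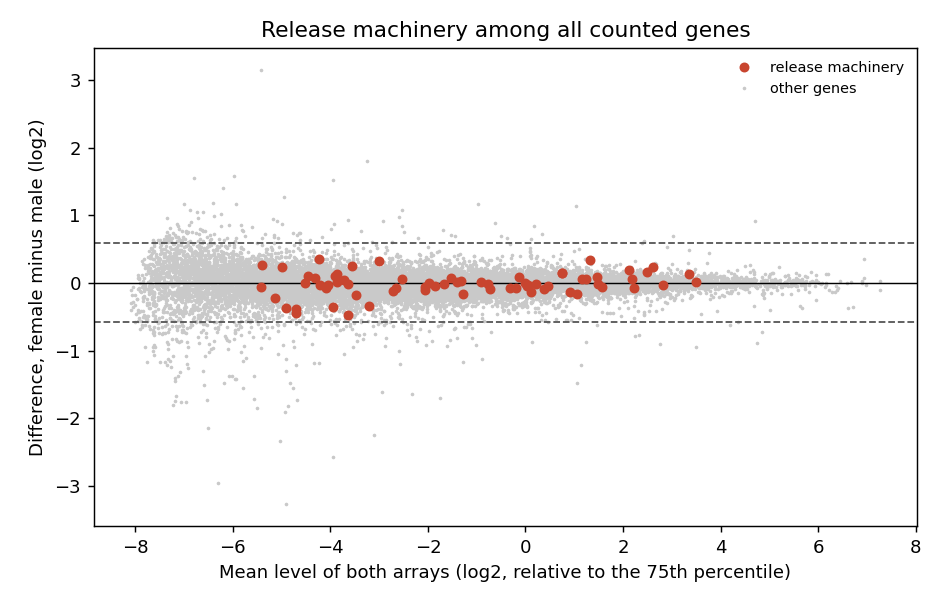
Difference (female minus male, log2) against mean level of both arrays for the 68 counted release genes (red) and all other counted genes (grey), with dashed lines at 1.5-fold. The release genes lie within the grey cloud at every level, and none passes a dashed line.

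Brightness moved with the size of the differences. In the brightest class 38 members had a median of -0.0048, with 19 higher in each pool, beside -0.014 for all genes of that class. The 16 members at 4- to 16-fold below the 75th percentile had a median of -0.034 against -0.031 for all genes there. For the 14 members at 16- to 64-fold below, the values were -0.030 against -0.0095. Of the 9 members beyond 0.32 in either direction, Stx8 was the one in the brightest class. The place of the spots on the array was looked at as well. Of the 72 genes, 22 had a single-spot probe in 4 of the 20 horizontal bands into which the array was divided, those where dim spots were most often much brighter on the male array; they hold 20.6% of all rat spots. Of the 9 members lower in the female pool by more than 2 spot SDs, 5 had their spot there, namely Stx3, Unc13b, Syt13, Cplx2 and Syt10. Of the 9 higher by as much, 2 had a spot there, Snap29 and the coding probe of Snap25. The bands were chosen by male excess of dim spots on these same arrays, so these counts are no separate evidence about the bands. The matching share of all genes was not analysed here. Without the bands, 51 members were counted, of which 9 were higher and 4 lower in the female pool by more than 2 spot SDs, against 7.42% and 11.6% of all genes. With the bands kept, the shares of all genes were 7.26% and 12.3%. Among the higher members Snap29 was then left out, and Rims2 entered because its 3′ probe alone remained, at 0.34. Beyond 0.32, 4 were then higher and 3 lower, against 4.14% and 4.83% of all genes. This count was added after seeing the data.

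Within the arrays, the 5 members spotted 10 times could be read spot by spot. All 10 Snap25 spots were higher on the female array, from 0.20 to 0.32 with a median of 0.23, and the mean was 0.24 ± 0.034 (SD over spots). All 10 spots of the 3′ probe of Vamp1 were higher there too, from 0.10 to 0.16, with a mean of 0.13 ± 0.017. The same held for the 3′ probe of Syt1, from 0.085 to 0.23, with a mean of 0.19 ± 0.039. In these 3 probes the spots did not reach 0. The other probes of these genes, with 1 spot each, gave 0.23 for Snap25, -0.017 for Vamp1 and -0.21 for Syt1. Stxbp3 had 3 of 10 spots higher on the female array, between -0.090 and 0.076, and Syt11 had 1 of 10, between -0.18 and 0.0034. Spots of 1 probe share the pool and the labelling reaction, so they are not replicates of sex.

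**Figure D4:**
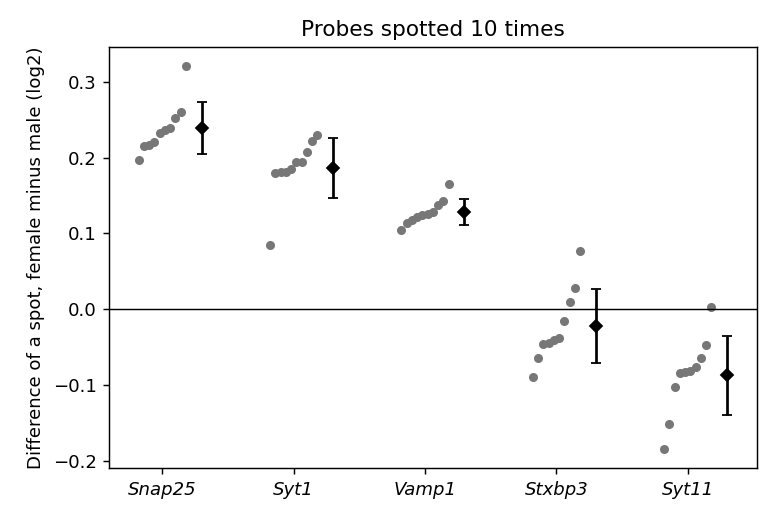
Differences (female minus male, log2) of the single spots of the 5 release gene probes spotted 10 times, sorted within each gene, with the mean and SD over the 10 spots as a diamond and bar. The spots of Snap25, Syt1 and Vamp1 all lie above 0, while those of Stxbp3 and Syt11 cross it.

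The position of the probe along the transcript moved with the difference. In 8 of 8 member genes with 2 counted probes on the same transcript, the probe nearer the 3′ end had the more female difference, by a median of 0.16. Over all genes with such a pair the share was 67.6%, 1625 of 2403, with a median of 0.075, and without the members it was 1617 of 2395. Rims2 had the widest gap, with 0.34 at its 3′ probe and -0.18 at its 5′ probe, 5025 bases apart. The 5′ probe of Rims2 is a single spot in the bands described above. Unc13c followed with 0.29 and -0.021, 2359 bases apart, and Syt4 with 0.11 and -0.20, 2494 bases apart. For the probes whose sequences are shown above, Vamp4 gave 0.049 at the 3′ probe and -0.12 at the start of the coding region, 2334 bases apart. Vamp1 gave 0.13 and -0.017 at 2188 bases, and Cplx1 gave 0.21 and 0.11 at 954 bases. Gaps were smaller for Stx16, 0.13 and 0.044 at 1170 bases, and Stx2, -0.15 and -0.21 at 119 bases, where the gap was smaller than 1 spot SD. In Rims2, Unc13c, Syt4, Vamp1 and Vamp4 the 3′ probe was higher on the female array and the 5′ probe on the male array. The 5′ values of Unc13c and Vamp1 and the 3′ value of Vamp4 lay within 1 spot SD of 0. In Rims2 and Syt4 both values lay beyond 1 spot SD, on opposite sides of 0, so their direction depended on the probe read.

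Ordered by rn4 coordinate and strand instead, 11 of 11 member genes had the more female difference at the 3′ side, with a median gap of 0.31, beside 67.2% of 2660 pairs over all genes. Here Stx16 enters with a further probe at -0.22 on its 5′ side, also a single spot in the bands described above. The order also adds Syt1, with 0.19 and -0.21, Vamp2, with 0.12 and -0.20, and Snap25, with 0.239 and 0.232, a gap far below the spot SD. The 5′ probe of Vamp2 is in the dimmest class, and its value is smaller in size than the spot SD there. Over all genes the share grew with the distance between the probes. At 60 to 300 bases it was 51.6% of 407 pairs, at 300 to 600 bases 59.0% of 322, at 600 to 1000 bases 67.7% of 399, at 1000 to 2000 bases 72.8% of 775 and at 2000 bases or more 78.2% of 500. The median distance was 2261 bases among the members, against 1079 bases over all genes. The shift was present where both probes were bright and the 5′ probe was the brighter one, in 100 of 138 pairs over all genes (72.5%). Per the labels, every RNA sample had an integrity number above 7, and the cause of the shift was not tested. For the members with a single probe, listed above by their gene values, no such comparison of positions could be made.

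**Figure D5:**
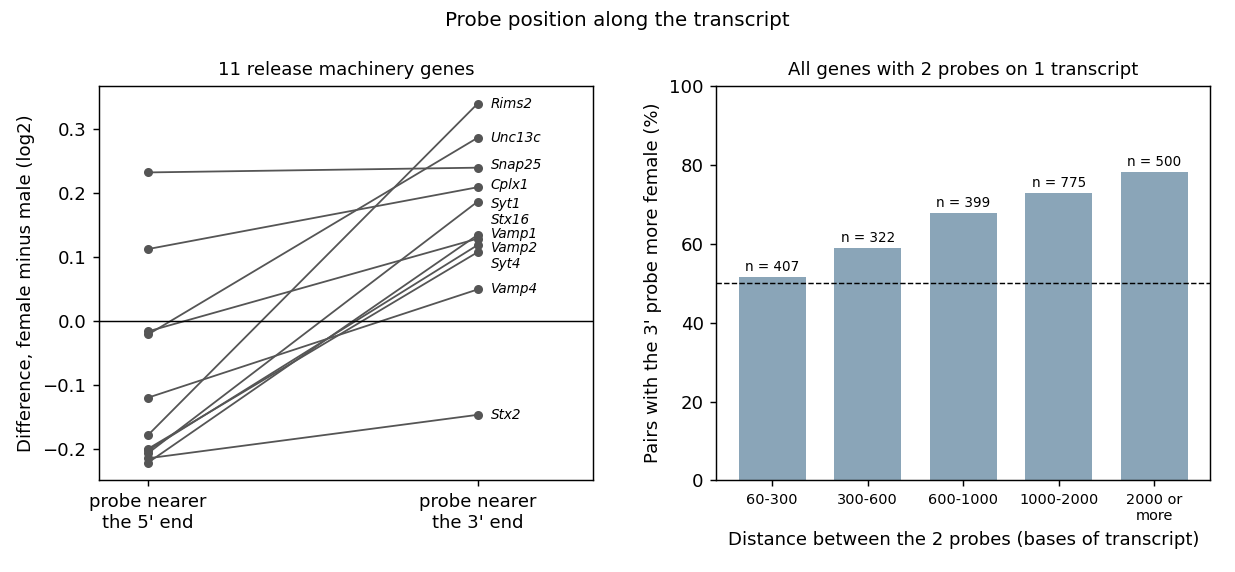
Left, difference (female minus male, log2) at the probe nearer the 5′ end and the probe nearer the 3′ end of the 11 release genes with 2 probes ordered by coordinate, 1 line per gene; every line climbs to the right. Right, share of all genes with 2 probes on 1 transcript whose 3′ probe was the more female, by the distance between the probes in bases, with the number of pairs above each bar and a dashed line at 50%; it runs from 51.6% to 78.2%.

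Beside the members, 55 other genes of exocytosis and vesicle recycling were listed, of which 53 were counted. In 16 (30.2%) the female value was the higher one, against 45.7% of all counted genes, and in 37 the male value. The median was -0.055, against -0.014 over all counted genes. Of all counted genes, 0.893% were at least 1.5-fold higher and 1.57% at least 1.5-fold lower in the female pool, and 1 of these 53 genes reached 1.5-fold. That gene was Apba2, which encodes an adaptor protein of the presynaptic side, with levels of -2.10 female and -3.07 male and a difference of 0.97 on 1 spot. Synpr, synaptoporin, gave 0.48 as the middle of probes at 0.77 and 0.18, and Cadps2, a priming factor of dense-core vesicles, gave 0.35. The largest male excesses were Erc1, an active zone scaffold, at -0.33, Ppfia1, a liprin, at -0.25 and Sytl5, a Rab27 effector, at -0.25.

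Markers of other cells in the dissected block moved more than the neuronal markers, and their part in the differences of the release genes was not tested. Over all counted genes the female value was the higher one in 45.7%, with a median of -0.014. The female value exceeded the male one in 8 of 10 oligodendrocyte genes, whose median was 0.13, with a summed level of 26.4 female against 25.4 male, led by Mog at 0.47 and Mobp at 0.36. This was so in 7 of 7 endothelial genes, whose median was 0.18, with a summed level of 5.25 female against 4.48 male, among them Slc2a1 at 0.26 and Cldn5 at 0.21. The male value was the higher one in 7 of 9 astrocyte genes, whose median was -0.095, with a summed level of 80.4 female against 84.8 male, and Gfap at -0.32 and Aqp4 at -0.26. Microglia had 6 of 9 genes lower in the female pool, a median of -0.14 and a summed level of 19.9 female against 20.7 male, with Cd68 at -0.63 and Csf1r at -0.28. The 8 meningeal genes and the 5 counted red cell genes were all lower in the female pool, at medians of -0.40 and -0.55. Their summed levels were 8.64 female against 14.1 male for meninges and 30.3 female against 40.5 male for red cells. A summed level is carried mostly by its brightest probes, such as those of Aldoc for astrocytes, Col1a2 for meninges and Hbb for red cells. Col1a2 at -0.90 and Aldh1a2 at -0.54 led the meningeal genes, and Slc4a1 at -0.85 and Ahsp at -0.81 the red cell genes.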

How the data were processed

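Messenger RNA of the NTS was measured in 1 female and 1 male pool on single-colour Agilent arrays. The deposited intensity values are, per the file headers, processed signals from Feature Extraction 10.7.3.1 with coordinates on rn4, whereas the submitters' processing notes give version 9.1. The authors' deposited value table held the same intensity on a linear scale times 1 factor per array, not centred, for 37504 rat spots, with column medians of 27.3 female and 28.0 male.

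From these, log2 processed signals were set relative to each array's 75th percentile, and the 430 flagged spots and all control spots were left out. Spots of a probe were averaged. A probe was counted when well above background on both arrays, and a gene is the median of its counted probes. Symbols of genes other than the members came through probe accessions from the RefSeq table of GRCr8, and no coordinate of that table was used. A pair of probes was the first and the last counted probe of a gene on 1 accession, at least 60 bases apart. Differences were described by size, with no test, and precision is limited by there being 2 arrays.

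Levels on both arrays are given for core release genes, the 6 largest differences in each direction, probes spotted 10 times and members above background on 1 array. The named genes of other lists are the 3 largest differences in each direction for release genes and up to 2 per marker list. A few genes that this rule names are not reported here. The members and lists were chosen with earlier results of these data known. The comparison of probe positions, the rule of 2 spot SDs and the regional markers were added after seeing the data.

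Alternatives were median, quantile and spike-in scaling, a loess trend (span 0.3), normexp (limma 3.58.1, R 4.3.3, offset 50), use of the value table, flagged spots retained, 3 other background filters, the brightest or the 3′ probe of a gene, other fold thresholds and 4 of 20 bands of array rows left out. The steps were tested on simulated data. Other computation used Python 3.11.15, numpy 2.4.6, pandas 2.3.3 and scipy 1.17.1.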

Additional observations from a re-analysis of the deposited data

How the results depend on the processing

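With 1 array per sex no replicate could be left out. No paired analysis was possible because each sex has a single pool and no result comes from a test. Scaling by the spike-in probes changed the most: the median of the release genes became 0.66, with 68 higher in the female pool, 52 at least 1.5-fold and 2 at least 2-fold higher there, the other release genes 0.62, and the markers 0.67 for neurons, 0.80 for oligodendrocytes, 0.58 for astrocytes, 0.53 for microglia, 0.85 for endothelium, 0.27 for meninges and 0.12 for red cells. This setting adds the same 0.67 to every gene, so these counts follow from the shift and are not particular to the release genes. The median over all counted genes became 0.66 too, and the matching shares of all genes were not analysed here. Under the other settings the members' median lay between -0.016 and 0.023 and was above 0 under 6 of 12, so it has no stable side. With normexp the endothelial median was 0.042 and the meningeal median -0.31. With probes above background on at least 1 array, 1 member was at least 1.5-fold and 1 at least 2-fold higher in the female pool, which is Cplx4. It passes through the female array alone, and against the floor of the male array its fold is only bounded at 1.02 or more. Without a filter these counts were 1 and 1, with 1 member at least 1.5-fold higher in the male pool, and 64.02% of probe pairs had the more female 3′ probe. That member was Stx11, which was not above background on either array. The shares of all genes at these folds under these 2 filters were not analysed here. Probes brighter than the median left 40 members and a microglia median of -0.054. The smaller threshold of 0.32 gave 3 members higher and 6 lower in the female pool, in place of 0 and 0 at 1.5-fold. Where the 5′ probe was the brighter one, 65.0% of pairs had the more female 3′ probe. Taking the 3′ probe moved 8 members by more than their spot SD and taking the brightest probe 8, of the 11 with several counted probes. Normexp moved 3, brighter probes 2 and leaving out the bands 1. Syt1 lay between -0.011 and 0.19 over the settings other than spike-in scaling and Rims2 between -0.18 and 0.34, while Snap25 stayed between 0.23 and 0.27. Stx3 lay between -0.48 and -0.39 under 10 settings, and it has no value without the bands or with brighter probes alone, since its spot is then left out. Without the bands, 9 members were higher and 4 lower in the female pool by more than 2 spot SDs, in place of 9 and 9. The higher ones were not all the same, since Snap29 was left out and Rims2 entered by its 3′ probe alone. Dim signal limits 14 members, whose spot SD is 0.15.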
